A study of Homo sapiens with 9 samples.

Results

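The genes described here are 39 genes of the autophagy machinery, chosen by name for their known function: the ATG genes, the initiation and PI3-kinase complexes, the ATG8 family and the cargo receptors. The rule used their names, but the list was drawn up with earlier results of these data known. All 39 were among the 58735 genes of the count table, and all 39 passed the filter on low counts that left 14975 genes for testing, so no member was lost. Counts came from polyadenylated RNA of THP-1 cells, an established human acute myeloid leukaemia line of monocytic type that carries the MLL-AF9 fusion. The design compared cells in which NFATC2, a transcription factor of the NFAT family, was knocked down by either of 2 short hairpin RNAs with cells given a hairpin that targets no gene.

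The 9 libraries fell into 3 groups of 3. Control cells received the non-targeting shRNA (SHX2 in the titles), another group received the NFATC2 hairpin shRNA-143, and the last received the NFATC2 hairpin shRNA-146. All 3 groups, controls included, were spinoculated with lentivirus made in 293T cells, were under puromycin from 24 hours and were harvested at 48 hours. No untransduced cells are compared here, so effects common to virus, hairpin expression and puromycin are in every group. Each group is 1 cell line, and each hairpin is 1 sequence, so an effect of a hairpin on other transcripts cannot be told apart from an effect of NFATC2 within that group. The series calls the replicates biological but does not say that they are separate cultures, and p-values therefore measure only the spread between these libraries.

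Macroautophagy encloses cytoplasm in a double membrane, the phagophore, that closes to an autophagosome and fuses with a lysosome. A kinase complex around ULK1 starts it, a PI3-kinase complex around PIK3C3 and BECN1 marks the membrane with PI3P, and ATG9A vesicles with the lipid transfer proteins ATG2A and ATG2B supply lipid. A ubiquitin-like conjugation system then attaches ATG8 proteins such as LC3B and GABARAP to the membrane, where cargo receptors such as SQSTM1 dock. Much of the control of this pathway acts on the proteins, by phosphorylation, lipidation and turnover, which messenger RNA levels do not show.

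Libraries held 40047459 to 44669709 counts, and 18485 to 21723 genes had at least 1 count. NFATC2 stood at 12.7, 27.6 and 27.4 CPM in control replicates 1 to 3, where CPM is a gene's count scaled to a common library size, with TMM factors. In the shRNA-143 libraries it stood at 1.49, 7.4 and 6.95 CPM, and in the shRNA-146 libraries at 2.59, 6.71 and 9.43 CPM. Every knockdown library was below every control library, as the labels state. With the replicate number in the fit (the block, described with the next results), NFATC2 fell by 2.27 ± 0.24 in log2 units with shRNA-143 (edgeR adjusted p 0.00168) and by 1.96 ± 0.23 with shRNA-146 (0.00435), and without it the adjusted p was 0.497 and 0.464. The 10 myeloid markers examined were all expressed, summing to 1030 to 1090 CPM in the control libraries, 1080 to 1200 with shRNA-143 and 900 to 1220 with shRNA-146. Of these, CD68 read only 0.102 to 0.538 CPM, and 85.8% of its exonic bases are shared with other genes. Of 6 markers of 293T cells, 4 had values and summed to at most 0.431 CPM in any library. The values are from bulk RNA, in which fewer cells of a type and less RNA per cell cannot be told apart.

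Libraries numbered 1 stood apart from those numbered 2 and 3 in all 3 groups. For 9 of 39 members (23.1%, against 28.4% of all tested genes) replicate 1 was the lowest library in each of the 3 groups: ULK1, RB1CC1, ATG14, AMBRA1, ATG2A, ATG16L2, NBR1, OPTN and TAX1BP1. For 10 of 39 (25.6%, against 25.9% of all tested genes) it was the highest in each: BECN1, WDR45, VMP1, ATG3, ATG5, ATG7, ATG10, ATG12, MAP1LC3B and GABARAPL2. Both shares were close to those of all genes. In log2 CPM, ULK1 in replicate 1 minus the mean of replicates 2 and 3 came to -1.31 for the controls, -1.51 for shRNA-143 and -2.86 for shRNA-146. For GABARAPL2 the same difference was 0.65, 0.91 and 1.18. The separation was thus widest with shRNA-146 for both genes. For others it was widest with shRNA-143, such as RB1CC1 (-1.88, against -1.11 with shRNA-146) and TAX1BP1 (-1.70 against -0.90). For this reason each comparison is given from a fit of the group means alone and from a fit that adds the replicate number as a term, called the block, and again without the libraries numbered 1.

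**Figure D1:**
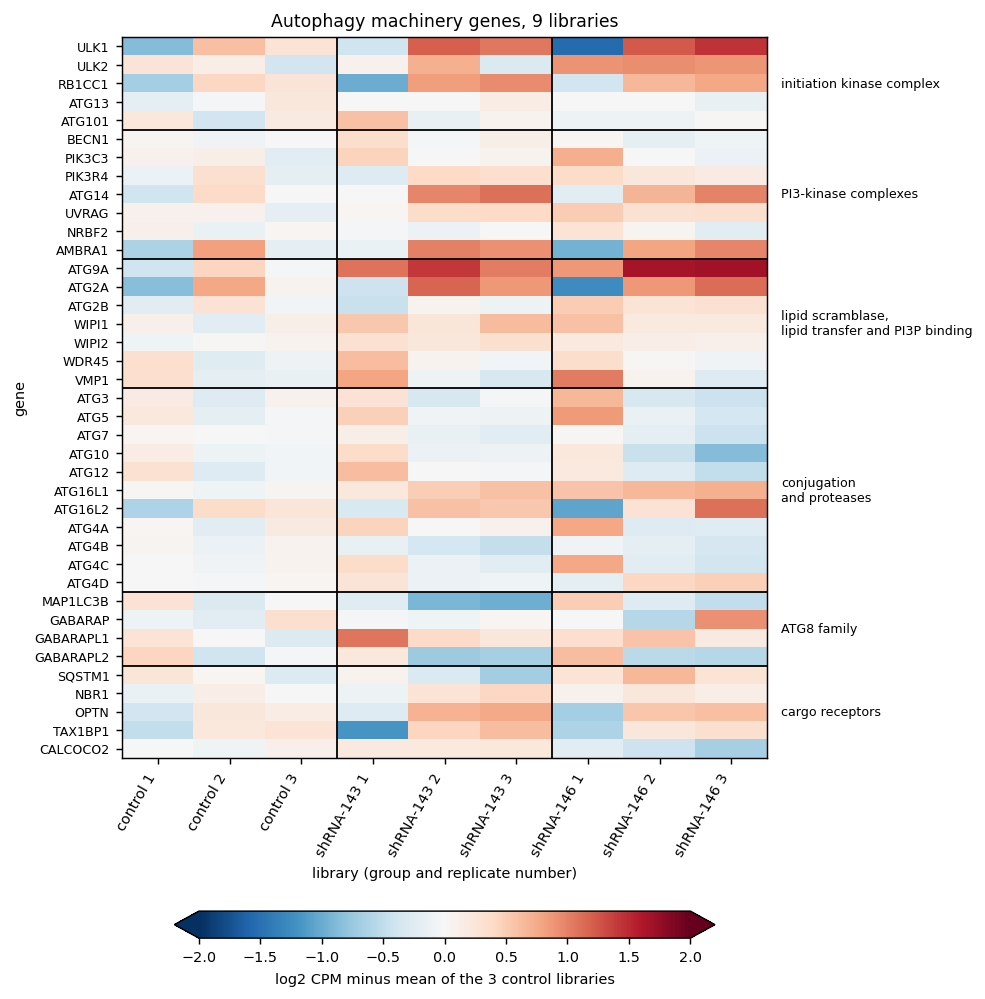
Log2 CPM of the 39 autophagy genes in each of the 9 libraries, minus the mean of the 3 control libraries of the same gene, with genes in order of role and the colour scale running from -2 to 2. For many genes the column of replicate 1 differs from its neighbours in every group, and ATG9A is above the control mean in all 6 knockdown libraries.

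With shRNA-143 against control, no member passed an adjusted p of 0.05 in edgeR's quasi-likelihood test on group means, where 0.0467% of all tested genes passed, and 2 passed at an unadjusted p of 0.05 (ATG9A and ATG16L1, against 6.8% of all genes). With the block, ATG9A rose and MAP1LC3B fell, 1 member in each direction of 39, where 1.6% of all tested genes rose and 1.57% fell. With shRNA-146 against control, again no member passed in the fit of group means, where 0.0334% of all genes passed, and 4 passed unadjusted (ULK2, ATG9A and ATG16L1 higher and CALCOCO2 lower, against 8.81% of all genes). With the block, ATG9A and ATG16L1 rose, where 2.46% of all tested genes rose. In the mean of both hairpins against control, 0 members passed on group means (0.0334% of all genes), and ATG9A and ATG16L1 rose with the block (2.98% of all genes rose). These shares of members are not far from the shares of all genes, so the number of calls is no result about the list as a whole. Both hairpin comparisons use the same 3 control libraries. In limma-voom no member passed in any of the 4 comparisons, where 0.0334% of all genes passed with shRNA-143, 0.0267% with shRNA-146, 0.0334% in the mean and 0.0534% between the hairpins, so that 0 of 39 says little about the members. In DESeq2 without the block ATG9A passed with each hairpin (1.05% and 1.25% of all genes tested there) and ATG16L1 with shRNA-146, and both passed in the mean (1.53%).

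Members above 0 on the log2 scale numbered 30 of 39 with shRNA-143, where 52.2% of all tested genes were above 0. With shRNA-146 they numbered 28 of 39, against 55.4% of all tested genes. The median log2 fold change of the members was 0.18 for shRNA-143 and 0.23 for shRNA-146, beside 0.02 and 0.05 over all tested genes. Scaling by library size alone shifted all genes upward, and the members' medians were then 0.27 and 0.34 beside 0.12 and 0.19 over all tested genes. In the mean of both hairpins with the block, the median of the initiation complex was 0.32, of the PI3-kinase complexes 0.21, and of the lipid scramblase, lipid transfer and PI3P binding genes 0.22. That of the conjugation system was 0.02, of the cargo receptors 0.06 and of the ATG8 family -0.10. Under library size scaling the ATG8 family's median changed sign to 0.02, and those of the initiation complex and the conjugation system were 0.43 and 0.15. With the length correction described with the next results, the medians were 0.20 for the initiation complex, 0.19 for the PI3-kinase complexes, 0.10 for the lipid genes, 0.06 for the conjugation system, 0.03 for the ATG8 family and -0.05 for the cargo receptors. The order of the groups thus changed with the processing, and no test was made of differences between groups of 4 to 11 genes. Most of the single members behind these medians did not pass the test.

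The members are long genes, and log2 fold changes in this experiment differed with gene length. Their median length by merged exons was 6352 bases, against 4550 for all tested genes, and 25 of 39 lay in the longest 2 of 5 equal bins. Over all tested genes, the median log2 fold change in the mean of both hairpins with the block went from -0.22 in the shortest bin through -0.11, 0.01 and 0.08 to 0.19 in the longest. Members' medians in the same bins were 0.07, 0.06, 0.38, 0.13 and 0.17, over 3, 5, 6, 14 and 11 genes. In the longest bin the members were therefore close to all genes. With the block alone, the members' median was 0.17 for shRNA-143 and 0.16 for shRNA-146, beside 0.00 and 0.02 over all tested genes. After a correction for length with the block it was 0.13 and 0.14, beside 0.01 over all tested genes with each hairpin. With that correction 2 members passed with each hairpin. They were ATG9A and MAP1LC3B with shRNA-143 (2.77% of all genes passed) and ATG9A and ATG16L1 with shRNA-146 (3.28%). ATG9A and ATG16L1 also passed in the mean (4.25% of all genes), and no member passed between the hairpins (1.36%). How much of the members' shift belongs to their length was not tested further.

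**Figure D2:**
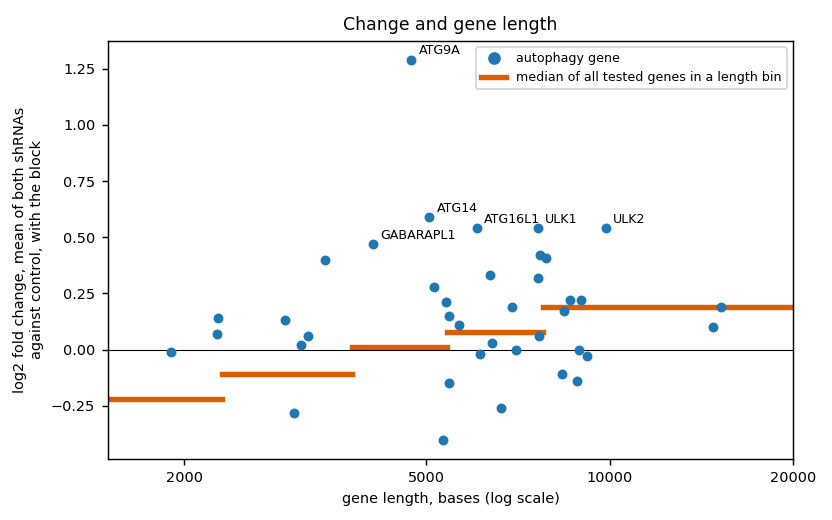
Log2 fold change in the mean of both hairpins against control, with the block, plotted against gene length in bases (merged exons) on a log axis cut at both ends. Points are the 39 members, the horizontal lines are medians of all tested genes in 5 length bins, and these climb from -0.22 to 0.19 with length.

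In the control libraries, levels per kilobase of exon had a median of 4.53 CPM per kb over the members, against 2.35 over all tested genes. The E2-like enzyme ATG3 had the highest level at 24.4 ± 3.62 CPM per kb (SD, n = 3), followed by ATG5 at 22.5 ± 3.05, the BECN1-complex regulator NRBF2 at 21.8 ± 1.81 and the ATG8 protein gene GABARAPL2 at 20.9 ± 6.06. ATG9A lay in the middle of the order at 3.29 ± 0.957. The lowest levels were those of GABARAP at 0.859 ± 0.184, ATG16L2 at 0.436 ± 0.144 and ULK2 at 0.18 ± 0.0393. Of 38 neighbouring pairs in this order, 32 had overlapping control libraries and so no clear order. The low level of GABARAP stands beside the fact that 55.7% of its exonic bases are shared with other annotated genes, and how such reads were counted was not given in the sources used here.

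**Figure D3:**
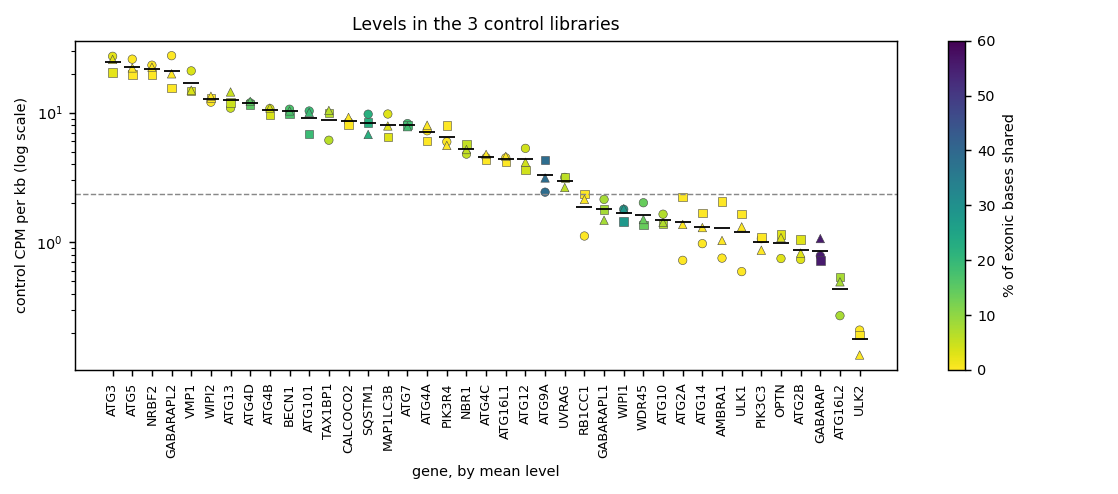
Level of each of the 39 members in control cells, in CPM per kb of exon on a log axis, as points for the 3 libraries with their mean, coloured by the share of exonic bases that another gene also covers. The dashed line is the median of all tested genes, 2.35 CPM per kb, and levels run from 24.4 for ATG3 to 0.18 for ULK2.

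The genes of the initiation kinase complex were ULK1 and ULK2, the kinases, and their partners RB1CC1 (FIP200), ATG13 and ATG101. None of the 5 passed the test in either fit with all 9 libraries. ULK1 stood at 4.52, 12.6 and 10 CPM in control, at 6.31, 18.9 and 17.2 in the shRNA-143 libraries and at 2.84, 19.4 and 22.5 in those of shRNA-146. Replicate 1 was far below the others in each group, so the groups overlapped widely. Its log2 fold change with the block was 0.61 ± 0.28 (SE, adjusted p 0.254) with shRNA-143 and 0.47 ± 0.29 (0.351) with shRNA-146. Without the libraries numbered 1, ULK1 rose by 0.68 ± 0.16 (adjusted p 0.0259) and 0.90 ± 0.16 (0.00801) with the block. RB1CC1, the scaffold, stood at 8.51, 18 and 16.3 CPM in control, at 6.82, 24.2 and 26.1 in the shRNA-143 libraries and at 10.4, 21.5 and 23.3 in those of shRNA-146. It too had its low library in replicate 1 of every group.

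ULK2, the second kinase, was low, at 2.07, 1.9 and 1.33 CPM in control and 1.85, 2.84 and 1.42 with shRNA-143. With shRNA-146 it stood at 3.25, 3.32 and 3.2 CPM. All 3 shRNA-146 libraries were above every control and every shRNA-143 library, and the latter overlapped the controls. The log2 fold change with shRNA-146 was 0.88 ± 0.31 (SE, n = 3 per group, edgeR adjusted p 0.47) on group means and 0.91 ± 0.25 (adjusted p 0.0643) with the block. With shRNA-143 it was 0.20 on group means. The direct difference of shRNA-146 from shRNA-143 was 0.72 ± 0.24 with the block (adjusted p 0.279) and did not pass. ATG13 and ATG101 had log2 fold changes between -0.05 and 0.18 with the block in both comparisons. Over the 9 libraries ATG101 ran from 21.8 to 42.8 CPM.

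The PI3-kinase genes were the lipid kinase PIK3C3, its regulatory subunit PIK3R4, the scaffold BECN1, the partners ATG14, UVRAG and NRBF2, and the regulator AMBRA1. None of the 7 passed in either fit with all libraries. ATG14, which directs the complex to the forming phagophore, had the largest value, at 4.93, 8.51 and 6.56 CPM in control, 6.56, 12.8 and 14 in the shRNA-143 libraries and 5.63, 10.4 and 13 in those of shRNA-146. Within each replicate number, both knockdown libraries were above the control. Its log2 fold change with the block was 0.69 ± 0.19 (adjusted p 0.0753) with shRNA-143 and 0.49 ± 0.19 (0.151) with shRNA-146. Without the libraries numbered 1, ATG14 rose by 0.83 ± 0.18 (adjusted p 0.0226) and 0.63 ± 0.18 (0.0456). UVRAG, the alternative partner of BECN1 in a later-acting complex, stood at 20.1, 20.1 and 16.8 CPM in control and at 27, 23.4 and 23.6 with shRNA-146. Those groups did not overlap, and the log2 fold change of 0.38 ± 0.16 with the block had an adjusted p of 0.178. BECN1 itself ran from 57.3 to 83.6 CPM over the 9 libraries, and its log2 fold changes were 0.14 and -0.08. PIK3C3 and PIK3R4 lay between 0.17 and 0.26.

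ATG9A encodes the lipid scramblase of the vesicles that seed the phagophore, and it had the largest log2 fold change of the 39 members with each hairpin. It stood at 11.5, 20.4 and 14.8 CPM in control, at 32.3, 40.2 and 30.9 in the shRNA-143 libraries and at 27.7, 47.4 and 48.4 in those of shRNA-146. All 6 knockdown libraries were above all 3 control libraries, as for 3.08% of all tested genes, and the hairpin groups overlapped each other. On group means the log2 fold change was 1.15 ± 0.29 (SE, edgeR adjusted p 0.364) with shRNA-143 and 1.40 ± 0.29 (adjusted p 0.217) with shRNA-146. With the block ATG9A rose by 1.18 ± 0.17, or 2.27-fold (adjusted p 0.00708), with shRNA-143, and by 1.41 ± 0.18, or 2.65-fold (adjusted p 0.00456), with shRNA-146. The difference between the hairpins was 0.22 ± 0.17 with the block (adjusted p 0.72).

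The call on ATG9A was kept with the block in 8 of 9 fits that each left out 1 library for shRNA-143, in 9 of 9 for shRNA-146 and in 7 of 9 for the mean. It was lost with shRNA-143 without control replicate 3 (1.13, adjusted p 0.0696), and in the mean without control replicate 2 (1.39, 0.051) or control replicate 3 (1.24, 0.0543). Without all libraries numbered 1 the values with the block were 1.02 ± 0.15 (adjusted p 0.0044) and 1.47 ± 0.15 (0.00123). ATG9A was also the one member below an adjusted p of 0.05 in each of the authors' deposited tables, at a log2 fold change of 1.16 (adjusted p 0.0102, in a table where 0.583% of genes passed) for shRNA-143 and 1.41 (0.024, 0.252%) for shRNA-146. These tables were made from the same libraries. The count of ATG9A is uncertain in 1 respect: 1833 of its 4724 exonic bases (38.8%) also belong to AC068946.2 on the same strand, which had 0 to 5 counts in every library.

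ATG9A (ENSG00000198925) lies at chr2:219219380-219229717 on the minus strand, ATG16L1 (ENSG00000085978) at chr2:233210051-233295674 on the plus strand and MAP1LC3B (ENSG00000140941) at chr16:87383995-87404779 on the plus strand of hg38. These are the 3 members that passed with the block, and the 250 bases before their RefSeq starts (GRCh38.p14) are printed because NFATC2 is a DNA-binding factor whose family recognises the core GGAAA. The stretches are chr2:219229637-219229886 (minus), chr2:233251423-233251672 (plus) and chr16:87392086-87392335 (plus), each given 5′ to 3′ on the gene's strand. Capitals mark GGAAA or its reverse complement TTTCC.
ATG9A: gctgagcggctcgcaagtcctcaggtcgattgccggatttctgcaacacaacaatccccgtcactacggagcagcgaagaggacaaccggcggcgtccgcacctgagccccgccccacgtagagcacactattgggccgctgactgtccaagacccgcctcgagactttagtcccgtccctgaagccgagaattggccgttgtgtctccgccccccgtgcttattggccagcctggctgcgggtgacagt
ATG16L1: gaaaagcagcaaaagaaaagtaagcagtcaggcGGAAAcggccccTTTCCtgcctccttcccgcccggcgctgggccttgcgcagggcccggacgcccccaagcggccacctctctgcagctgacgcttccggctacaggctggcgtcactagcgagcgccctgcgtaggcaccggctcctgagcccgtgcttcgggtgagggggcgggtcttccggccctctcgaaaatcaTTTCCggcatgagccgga
MAP1LC3B: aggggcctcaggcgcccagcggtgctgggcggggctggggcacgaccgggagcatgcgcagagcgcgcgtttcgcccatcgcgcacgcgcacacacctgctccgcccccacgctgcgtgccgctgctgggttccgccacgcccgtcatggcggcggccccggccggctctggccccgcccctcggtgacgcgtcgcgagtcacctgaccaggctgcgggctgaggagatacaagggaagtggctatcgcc
The ATG16L1 stretch held 3 matches, and the other stretches held 0, which says only that these letters are not in those windows. The ATG16L1 and MAP1LC3B windows lie inside the gene spans given above. The sequence before those spans was not searched for these genes. RefSeq promoters were matched for 36 of the 39 members, 45 promoters in all. GGAAA on either strand was in 23 of 45 (51.1%), against 55.6% of 35116 promoters of the same length. The E-box CACGTG, the core of the element bound by TFEB and its relatives, was in 3 of 45 (6.67%, those of ATG3, NRBF2 and ATG14), against 6.34% of all. Both motifs were searched on both strands, and overlap with each other was allowed. Both shares for the members were near those of all promoters.

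ATG2A and ATG2B encode the bridge-like proteins that carry lipid to the phagophore, and the PI3P-binding proteins WIPI1, WIPI2 and WDR45 act beside them. WIPI1 stood at 6.11, 4.92 and 6.18 CPM in control, at 8.31, 6.76 and 8.8 in the shRNA-143 libraries and at 8.6, 6.52 and 6.52 in those of shRNA-146. WIPI2, which recruits ATG16L1, averaged 114 ± 6.19 CPM (SD, n = 3) in control, 139 ± 4.97 in the shRNA-143 libraries and 127 ± 4.21 in those of shRNA-146. For both genes all 6 knockdown libraries were above all 3 control libraries, as for 3.08% of all tested genes, but neither passed. With the block WIPI1 gave 0.47 ± 0.17 (adjusted p 0.155) and 0.33 ± 0.17 (0.271), and WIPI2 0.28 ± 0.12 (0.213) and 0.15 ± 0.12 (0.495). Of WIPI1's exonic bases 28.1% are shared with ARSG and AC007780.1 on the opposite strand. ATG2B stood at 10.9, 15.5 and 12.2 CPM in control, 9.33, 13.3 and 11.9 in the shRNA-143 libraries and 18, 15.4 and 15.7 in those of shRNA-146. Its shRNA-146 libraries were above all of shRNA-143, with a difference of 0.51 ± 0.22 (unadjusted p 0.0436, adjusted p 1) on group means. ATG2A gave 0.53 and 0.29 with the block and had its lowest library in replicate 1 of each group. VMP1, a scramblase of the endoplasmic reticulum, ran from 91.5 to 236 CPM and was highest in replicate 1 of each group.

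Among the 11 conjugation genes, ATG16L1 passed the test. It encodes the subunit that sets where ATG8 proteins are attached, in a complex with the ATG12-ATG5 conjugate. ATG16L1 stood at 27.1, 25.1 and 27.8 CPM in control, at 30.7, 37.6 and 40.2 in the shRNA-143 libraries and at 39.6, 42.3 and 43.6 in those of shRNA-146. All 6 knockdown libraries were above all 3 control libraries (3.08% of all tested genes), and the lowest knockdown library was shRNA-143 replicate 1. On group means the log2 fold change was 0.65 ± 0.17 (edgeR adjusted p 0.388) with shRNA-146, and with the block ATG16L1 rose by 0.65 ± 0.14, or 1.57-fold (adjusted p 0.0281). With shRNA-143 it was 0.43 ± 0.14 with the block (adjusted p 0.113), and the direct difference between the hairpins, 0.22 ± 0.13, had an adjusted p of 0.648. None of its exonic bases is shared with another gene.

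The ATG16L1 call rested on most single libraries. With shRNA-146 it was kept in 3 of 9 leave-one-out fits with the block, those without shRNA-143 replicate 1 or without shRNA-146 replicate 1 or 3. It was lost in the other 6, where log2 fold changes were 0.58 (without control replicate 2) to 0.74 (without control replicate 1) and the adjusted p ran from 0.0574 to 0.162. In the mean of both hairpins it was kept in the same 3 fits and lost in the other 6, with adjusted p from 0.0628 to 0.194. Without all libraries numbered 1, ATG16L1 rose with both hairpins, by 0.56 ± 0.12 (adjusted p 0.0191) and 0.71 ± 0.12 (0.00656) with the block.

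The other conjugation genes did not pass with all 9 libraries. The E1-like enzyme ATG7 gave -0.09 and -0.20 with the block, the E2-like enzyme ATG3 -0.03 and -0.02, ATG5 0.09 and 0.13 and ATG12 0.19 and -0.18 for shRNA-143 and shRNA-146. ATG3 and ATG5 had their highest library in shRNA-146 replicate 1, at 235 and 228 CPM, while the other shRNA-146 libraries stood at 118 and 110 and at 116 and 99.6. ATG10, which joins ATG12 to ATG5, gave -0.35 ± 0.19 (adjusted p 0.288) with shRNA-146. Of the ATG4 proteases that trim and release ATG8 proteins, ATG4B stood at 71.3, 63.3 and 72 CPM in control and 61.8, 53.8 and 49.4 with shRNA-143. It was the single member whose shRNA-143 libraries all lay below the controls, and its log2 fold change of -0.33 ± 0.13 (adjusted p 0.186) did not pass. ATG4D stood at 27.1, 26.4 and 27.8 CPM in control and at 23.8, 36 and 37.7 with shRNA-146, so that replicate 1 lay below the controls and the others above. Without the libraries numbered 1 it rose by 0.45 ± 0.12 (adjusted p 0.0346) with the block.

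MAP1LC3B encodes LC3B, the ATG8 protein most used to follow autophagosomes. It stood at 51.8, 34.6 and 41.9 CPM in control, at 35.6, 22.5 and 21.4 in the shRNA-143 libraries and at 59.4, 35.4 and 30 in those of shRNA-146. Within each replicate number the shRNA-143 library was the lowest of the 3 groups, while the groups overlapped across numbers, with replicate 1 the highest library of each. The log2 fold change with shRNA-143 was -0.69 ± 0.31 (edgeR adjusted p 0.739) on group means, and with the block MAP1LC3B fell by 0.72 ± 0.15 in log2 units, or 1.65-fold (adjusted p 0.0336). With shRNA-146 it was -0.09 ± 0.15 (adjusted p 0.777). The direct difference of shRNA-146 from shRNA-143 was 0.63 ± 0.15 (adjusted p 0.0882) and did not pass, so the hairpins are not shown to differ.

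The MAP1LC3B call with the block was kept in 2 of 9 leave-one-out fits, those without shRNA-146 replicate 1 or 3. In the other 7 its log2 fold change lay between -0.55 (without control replicate 3) and -0.83 (without control replicate 1), with adjusted p from 0.0549 to 0.219. Without all libraries numbered 1 it was -0.79 ± 0.14 (adjusted p 0.0104). The near-identical copy MAP1LC3B2 read 0.0238 to 0.279 CPM, and how reads that fit both were counted was not given in the sources used here.

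The other ATG8 genes did not pass in all 9 libraries. GABARAPL2 (GATE-16) stood at 83.3, 46.9 and 60.4 CPM in control, 71.8, 37.4 and 39.2 in the shRNA-143 libraries and 95.2, 42.6 and 41.6 in those of shRNA-146. Its log2 fold change with shRNA-143 was -0.40 ± 0.15 (adjusted p 0.17) with the block, and -0.47 ± 0.13 (0.0466) without the libraries numbered 1. GABARAPL1 went the other way, at 0.57 ± 0.19 (adjusted p 0.127) and 0.37 ± 0.19 (0.259). GABARAP gave -0.02 and 0.16. The 4 ATG8 genes thus had values on both sides of 0.

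The cargo receptors bind ubiquitinated or galectin-marked cargo and ATG8 proteins at once. SQSTM1 (p62) stood at 74.4, 64.2 and 51.9 CPM in control, 65.9, 51.3 and 38.7 in the shRNA-143 libraries and 76.3, 99.5 and 76 in those of shRNA-146. The shRNA-146 libraries were all above those of both other groups, and those 2 groups overlapped. SQSTM1's difference of shRNA-146 from shRNA-143 was 0.69 ± 0.24 (edgeR adjusted p 0.987) on group means and 0.72 ± 0.16 (adjusted p 0.0701) with the block. Against control the block gave -0.30 ± 0.16 (adjusted p 0.322) with shRNA-143 and 0.42 ± 0.16 (0.151) with shRNA-146. Of its exonic bases 22% are shared with MRNIP and MGAT4B on the opposite strand.

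CALCOCO2 (NDP52), a receptor for bacteria and damaged mitochondria, stood at 70.7, 66.9 and 76.5 CPM in control, 81.6, 81.8 and 82.7 in the shRNA-143 libraries and 60.6, 53.7 and 45.1 in those of shRNA-146. The shRNA-143 libraries were all above the controls and the shRNA-146 libraries all below, with no overlap among the 3 groups. On group means its log2 fold changes were 0.20 ± 0.17 (adjusted p 0.928) and -0.43 ± 0.17 (0.526), and the difference of shRNA-146 from shRNA-143 was -0.63 ± 0.17 (adjusted p 0.628). With the block that difference was -0.63 ± 0.14 (adjusted p 0.0649). None of its exonic bases is shared with another gene. NBR1 gave 0.19 and 0.15 and OPTN 0.39 and 0.17 with the block, and TAX1BP1, whose replicate 1 was lowest in each group, gave -0.03 with both.

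**Figure D4:**
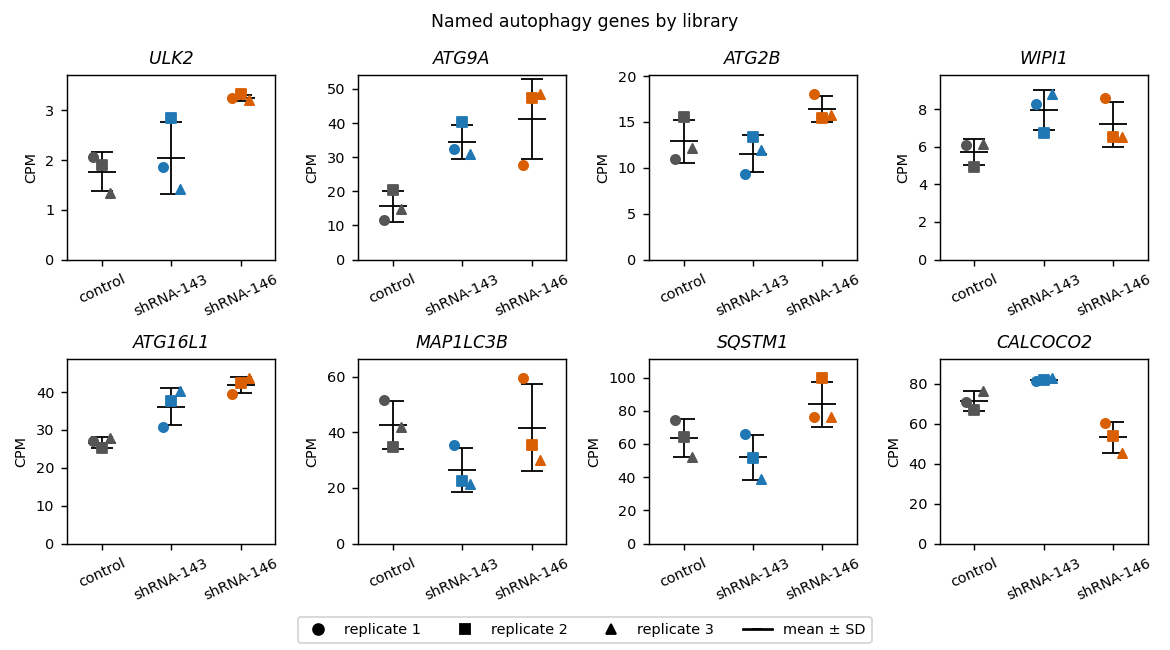
CPM of 8 members in the 9 libraries, by group, with circles, squares and triangles for replicates 1, 2 and 3 and lines for the mean ± SD (n = 3). ATG9A and ATG16L1 lie above control in all 6 knockdown libraries, while CALCOCO2 lies above control with shRNA-143 and below it with shRNA-146.

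Between shRNA-146 and shRNA-143, no member passed in either fit, where 0.0467% of all tested genes passed on group means and 1.2% with the block, and 3 passed at an unadjusted p of 0.05 on group means (ATG2B and SQSTM1 higher, CALCOCO2 lower, against 3.75% of all genes). DESeq2 called 1 of 39, CALCOCO2 (adjusted p 0.0472), against 0.658% of all genes. Scaled by library size with the block, CALCOCO2 (adjusted p 0.047) and MAP1LC3B (0.0462) passed between the hairpins, where 1.24% of all genes passed. Under that scaling 2 members passed in each comparison with control, where 2.76% of all genes passed for shRNA-143, 5.58% for shRNA-146 and 5.73% for the mean. Groups that did not overlap were counted as a description. With shRNA-143, 5 members were above every control library (ATG9A, WIPI1, WIPI2, ATG16L1 and CALCOCO2, against 7.09% of all tested genes) and 1 was below (ATG4B, 8.11%). With shRNA-146, 7 were above (ULK2, UVRAG, ATG9A, WIPI1, WIPI2, ATG16L1 and SQSTM1, against 7.25%) and 1 was below (CALCOCO2, 7.46%). ATG9A, WIPI1, WIPI2 and ATG16L1 were above every control library with both hairpins, which held for 3.08% of all tested genes. For shRNA-146 against shRNA-143, 3 were above (ULK2, ATG2B and SQSTM1, 4.49%) and 2 below (WIPI2 and CALCOCO2, 3.69%). With each hairpin the members above control were a larger share of 39 than the share over all genes, and those below control a smaller one. No test was made of these shares.

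**Figure D5:**
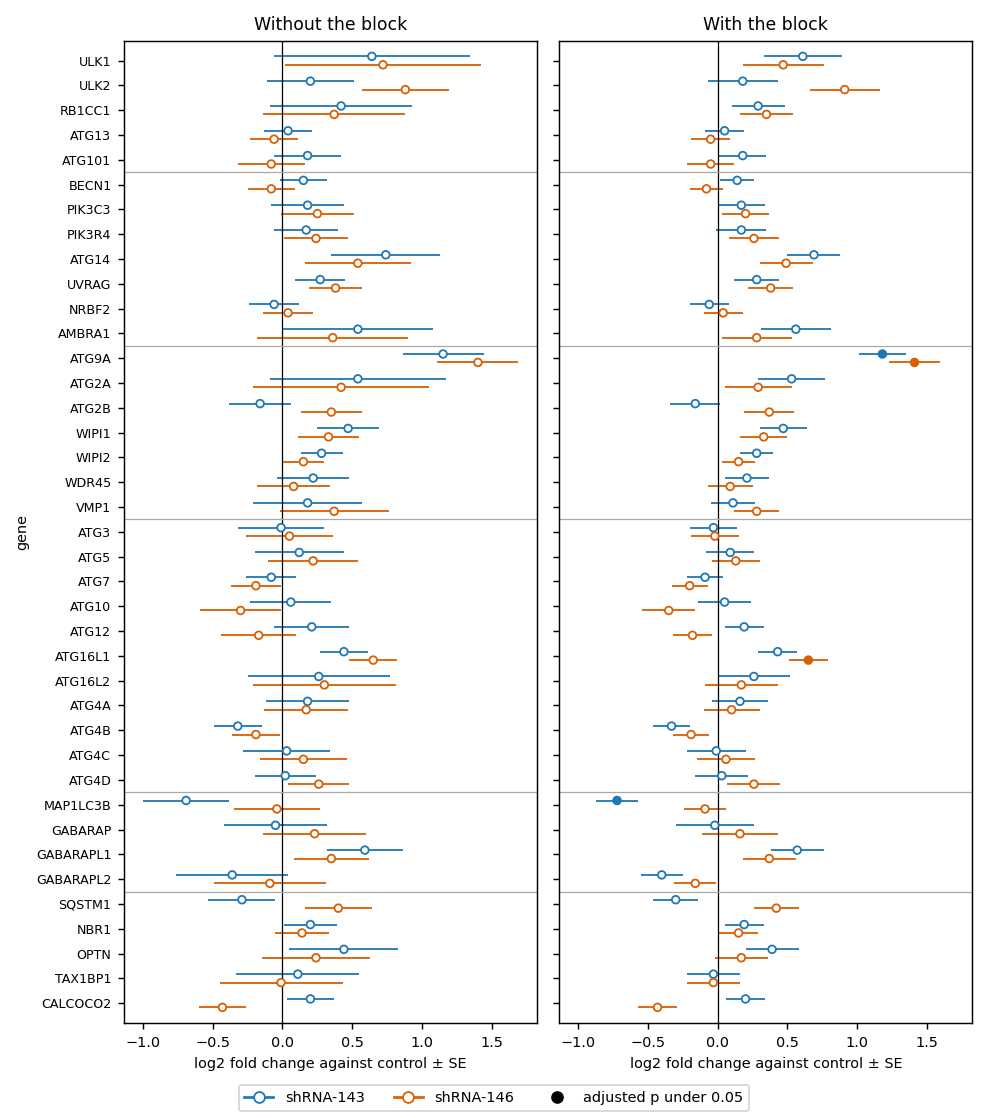
Log2 fold change ± SE of each member with shRNA-143 and shRNA-146 against control, from the fit on group means and the fit with the block, filled where the adjusted p was under 0.05. Filled points stand only at ATG9A with both hairpins, ATG16L1 with shRNA-146 and MAP1LC3B with shRNA-143, all in the fit with the block.

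Leaving out the 3 libraries numbered 1 raised the number of calls among members and among all genes. On group means 4 members passed with shRNA-143 (3.89% of all genes) and 3 with shRNA-146 (6.28%), 6 in the mean (10.1%) and 2 between the hairpins (1.06%). With the block, 7 passed with shRNA-143, where 10.4% of all genes passed: ATG9A, ATG16L1, ATG14, RB1CC1 and ULK1 rose, and MAP1LC3B and GABARAPL2 fell. With shRNA-146, 8 passed, where 13.9% of all genes passed: ATG9A, ATG16L1, ATG14, ULK1, ULK2, ATG4D and SQSTM1 rose, and CALCOCO2 fell. ATG9A, ATG16L1, ATG14 and ULK1 rose with both hairpins there, and the share of all genes that did so is not given here. In the direct comparison ATG4D and SQSTM1 were higher and CALCOCO2 lower with shRNA-146, 3 of 39, where 2.1% of all genes passed. In the mean of both hairpins 10 of 39 passed, where 19.1% of all genes passed. SQSTM1's difference was then 0.96 ± 0.12 (adjusted p 0.00224) and that of CALCOCO2 was -0.74 ± 0.13 (0.0177). Leaving out shRNA-146 replicate 1 alone gave 8 calls with the block with each hairpin and in the mean, where 13.7%, 11.4% and 20.1% of all genes passed, and 2 between the hairpins, where 2.24% passed. That library had the fewest genes with a count, 18485, the highest summed CPM of the members, 1970, and the lowest SPI1 and CEBPA, at 89.3 and 68.7 CPM. The part of these differences in the calls was not tested.

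Beyond the machinery itself, 95 of 100 listed genes of autophagy control, fusion and organelle receptors were tested. None passed on group means. With the block 7 passed with shRNA-143 (3 rose and 4 fell), where 3.17% of all genes passed, and 8 with shRNA-146 (4 and 4), where 4.42% passed. In the mean of both hairpins 8 rose and 3 fell, where 2.98% of all genes rose and 2.75% fell (5.74% in either direction). RUBCNL (Pacer), a UVRAG partner in autophagosome maturation, stood at 31.3, 13.9 and 14.3 CPM in control, 15.1, 7.73 and 7.1 in the shRNA-143 libraries and 18, 9.04 and 9.3 in those of shRNA-146. It was lower with each hairpin within every replicate number and fell by 0.83 ± 0.12 in log2 units in the mean of both hairpins (adjusted p 0.0075). FYCO1, an adaptor that links LC3-coated vesicles to kinesin, stood at 1.91, 9.29 and 4 CPM in control, 3.1, 22.2 and 19.3 in the shRNA-143 libraries and 2.94, 15 and 18.2 in those of shRNA-146. It rose by 1.28 ± 0.26 (adjusted p 0.0239) in the mean, again within every replicate number. WDFY3 (ALFY), a scaffold for selective clearance of aggregates, rose by 0.69 ± 0.13 (0.0138), and EPG5, a tether for fusion with lysosomes, by 0.64 ± 0.15 (0.0381).

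Of the 27 nutrient and energy sensing genes, TSC1, an mTORC1 inhibitor, rose by 0.76 ± 0.15 (adjusted p 0.0225) and FNIP2, a folliculin partner, by 0.74 ± 0.17 (0.0306), and LAMTOR4, a subunit of the Ragulator that anchors mTORC1 on lysosomes, fell by 0.58 ± 0.13 (0.0334), all in the mean of both hairpins with the block. Of the 22 organelle receptors, PHB2, an inner mitochondrial membrane receptor, fell by 0.48 ± 0.11 (0.0318). Of LAMTOR4's, PHB2's and RUBCNL's exonic bases 18.4%, 11.8% and 9.75% are shared with other genes. Of the 11 transcription factors, TFEC rose, and so did DDIT3, whose exonic bases are shared with other genes for 39.6%, while TFEB (-0.09), TFE3 (0.16) and MITF (0.72, adjusted p 0.0832) did not pass. MTOR gave 0.15. The genes that passed lay on both sides of 0 within the sensing, fusion and organelle receptor lists. In the mean with the block, the sensing list ran from -0.83 to 0.76 and from -0.70 to 0.56 after the length correction. The fusion list ran from -0.83 to 1.28 and then -0.90 to 1.15, the organelle receptors from -0.48 to 0.69 and then -0.51 to 0.45. The other core and early factors ran from -0.32 to 1.23 and then -0.36 to 1.42, the transcription factors from -0.26 to 0.72 and then -0.22 to 0.72. Single calls of these genes with that correction, or with a library left out, are not given here.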

How the data were processed

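RNA-seq counts of 9 libraries, 3 in each of 3 groups named by the labels, were analysed. The authors deposited raw counts per gene for each library. Tools named in the submitters' processing notes are fastp, STAR 2.5, featureCounts and DESeq2, with the hg38 build. The strand setting and the handling of overlapping genes were not given in the sources used here. The authors also deposited a table for each hairpin against control, whose log2 fold changes and p-values are quoted only where named as theirs. The same tables hold signal values, counts the authors divided by a size factor per library, and FPKM values, which the authors scaled by gene length and depth, and neither was used for tests.

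Genes were kept by filterByExpr in edgeR 4.0.16 (R 4.3.3), which left 14975, and counts were scaled by TMM. Group means of all 9 libraries were tested by glmQLFit (robust) and glmQLFTest with 6 residual degrees of freedom, and again with the replicate number as a block (4). P-values were adjusted by Benjamini-Hochberg over all tested genes, with a threshold of 0.05, and all adjusted p-values are from this test unless another tool is named. SEs were derived from the log2 fold change and the F statistic. Deviations from group means correlated at 0.252 to 0.758 between libraries with the same number and at -0.678 to 0.535 otherwise, and 9 of 9 libraries matched their own number best. The pairing therefore comes from these data and not from the labels. CPM values are TMM-scaled. Gene positions and overlaps are from GENCODE 29, and promoters from RefSeq.

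Alternatives were DESeq2 1.42.0, limma-voom (limma 3.58.1), other scalings and filters, a length correction (lowess, span 0.3), leaving out each library, and leaving out libraries numbered 1. Scripts were tested on simulated data. Members and lists were chosen with earlier results of these data known. Members were given values in every library if they passed in any comparison in either fit or were among the 3 with the smallest unadjusted p in a comparison on group means. Other members are named by role. Non-member genes were named if they passed in the mean of both hairpins, at most 8 by smallest p. TFEB, TFE3, MITF, MTOR, TFEC, DDIT3 and TBC1D14 were named beyond that rule, after their values were seen. T cell and erythroid markers were not analysed here.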

Additional observations from a re-analysis of the deposited data

Results flagged for a closer look

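CALCOCO2 was above control in all 3 shRNA-143 libraries and below control in all 3 shRNA-146 libraries, which is what marked it for a closer look. The difference of shRNA-146 from shRNA-143 was tested directly: -0.63 on the log2 scale, with an edgeR adjusted p of 0.628 on group means and 0.0649 with the block, so it did not pass. DESeq2 gave an adjusted p of 0.0472, and without the libraries numbered 1 the block gave 0.0177. The hairpins are 2 separate sequences, and what sets their libraries apart was not tested.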

How the results depend on the processing

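Counts of members that passed are given for shRNA-143, shRNA-146 and the mean of both against control, and for shRNA-146 against shRNA-143. On group means they were 0 in all 4 comparisons. With the replicate block, which follows a pairing seen in the data, they were 2, 2, 2 and 0. DESeq2 gave 1, 2, 2 and 1. The block with library size scaling gave 2, 2, 2 and 2 (CALCOCO2 and MAP1LC3B between the hairpins), and with the length correction 2, 2, 2 and 0. Without the libraries numbered 1 they were 4, 3, 6 and 2 on group means and 7, 8, 10 and 3 with the block, where all-gene shares were 3.89%, 6.28%, 10.1% and 1.06%, and 10.4%, 13.9%, 19.1% and 2.1%. Leaving out each library in turn gave 0 in every fit on group means, and with the block 0 to 8, 1 to 8, 0 to 8 and 0 to 2, with the 8s without shRNA-146 replicate 1. All-gene shares in those fits ran from 0.359% to 13.7%, 0.176% to 11.4%, 0.0912% to 20.1% and 0.202% to 2.24%. The cause of these changes was not tested.

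Of 984 other values under an alternative, 874 kept direction and side of the threshold, 90 passed where they had not, and 20 changed sign. ULK2 with shRNA-143 (0.20) was -0.12 and -0.08 without shRNA-143 replicate 2 (on group means and with the block) and at most 0.41 in leave-one-out fits. MAP1LC3B with shRNA-146 (-0.04) was 0.07 under library size scaling, 0.05 with the block added, and 0.12, 0.08, 0.06, 0.15 and 0.05 in 5 leave-one-out fits, which ran from -0.39 to 0.15. In the mean of both hairpins CALCOCO2 (-0.11) was 0.00 under library size scaling with or without the block. ATG2B (0.09) was -0.12 with the block and length correction and -0.01 and 0.00 in 2 leave-one-out fits, which reached 0.25. SQSTM1 (0.06) was -0.05 with the block and length correction and -0.07, -0.05, -0.03, -0.01 and 0.00 in 5 leave-one-out fits, which reached 0.18. None of these was called.

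With 3 libraries a group, changes of the size seen for most members cannot be separated from library spread, and a member that did not pass is not shown to be unchanged. RNA levels do not measure autophagy.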
